A study of Arabidopsis thaliana with 6 samples.

Results

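A set of 7 classical cold-regulated genes of Arabidopsis thaliana was followed: COR15A, COR15B, COR47, ERD10, ERD14, KIN1 and KIN2. They were chosen by name, ignoring case, and all 7 had a row among the 22759 named rows of the deposited tables. The study compared shoots (aerial parts) of seedlings of the wild type (WT, accession Col) and of the mutant hrlp-2, which the labels describe as an HRLP knockout, at an age of 9 days, with 3 libraries of each genotype that the submitters call biological replicates. HRLP encodes an RNA-binding protein related to hnRNP R. Both genotypes grew at 23 ± 2 °C under 16 h of light and 8 h of darkness per day, and the labels name no cold treatment. Total RNA was sequenced from directional libraries, and the values are read counts scaled by library total (CPM), in which 1 CPM stood for about 19.9 to 25.2 reads.

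Cold-regulated genes of this kind are switched on when a plant is chilled, dried or treated with abscisic acid, and their products accumulate during cold acclimation, when plants gain freezing tolerance. In the cold, transcription factors of the CBF/DREB1 group bind the C-repeat or dehydration-responsive element (CRT/DRE, core CCGAC) before these genes, while abscisic acid acts through factors that bind ABRE elements (core ACGTG). COR15A and COR15B make small chloroplast proteins that protect membranes during freezing. COR47, ERD10 and ERD14 are acidic dehydrins, unstructured hydrophilic proteins that shield membranes and proteins from water loss, and KIN1 and KIN2 are a pair of small hydrophilic proteins.

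In seedlings grown at this normal temperature, 5 of the 7 genes were higher in hrlp-2 and 0 were lower (limma; at an unadjusted p under 0.05, 6 were higher and 0 lower, and with limma-voom 5 and 0). COR15A and COR15B rose most, by 1.40-fold and 1.38-fold, followed by ERD10 at 1.23-fold, COR47 at 1.15-fold and KIN2 at 1.11-fold, and all these changes were well below 2-fold. ERD14 and KIN1 did not pass the test. Of the 18643 rows tested, 11% passed as higher, 9.31% as lower and 20.4% in either direction (limma, Benjamini-Hochberg adjusted p under 0.05). Strongly expressed rows passed more often: of the 1604 rows that averaged at least 100 CPM, which include 6 of the 7 genes, 35.2% were higher and 20.1% lower. In the deposited CPM, before the scaling that the test used, the groups did not overlap for 4 of the 7 genes. The same held for 33.4% of all tested rows in either direction and 14.7% in the higher direction. Of the 1604 rows of at least 100 CPM, 1022 did not overlap in either direction, a larger share than among the 7 genes. The median log2 fold change was 0.20 over the 7 genes, 0.002 over all tested rows and 0.03 over rows of at least 100 CPM.

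**Figure D1:**
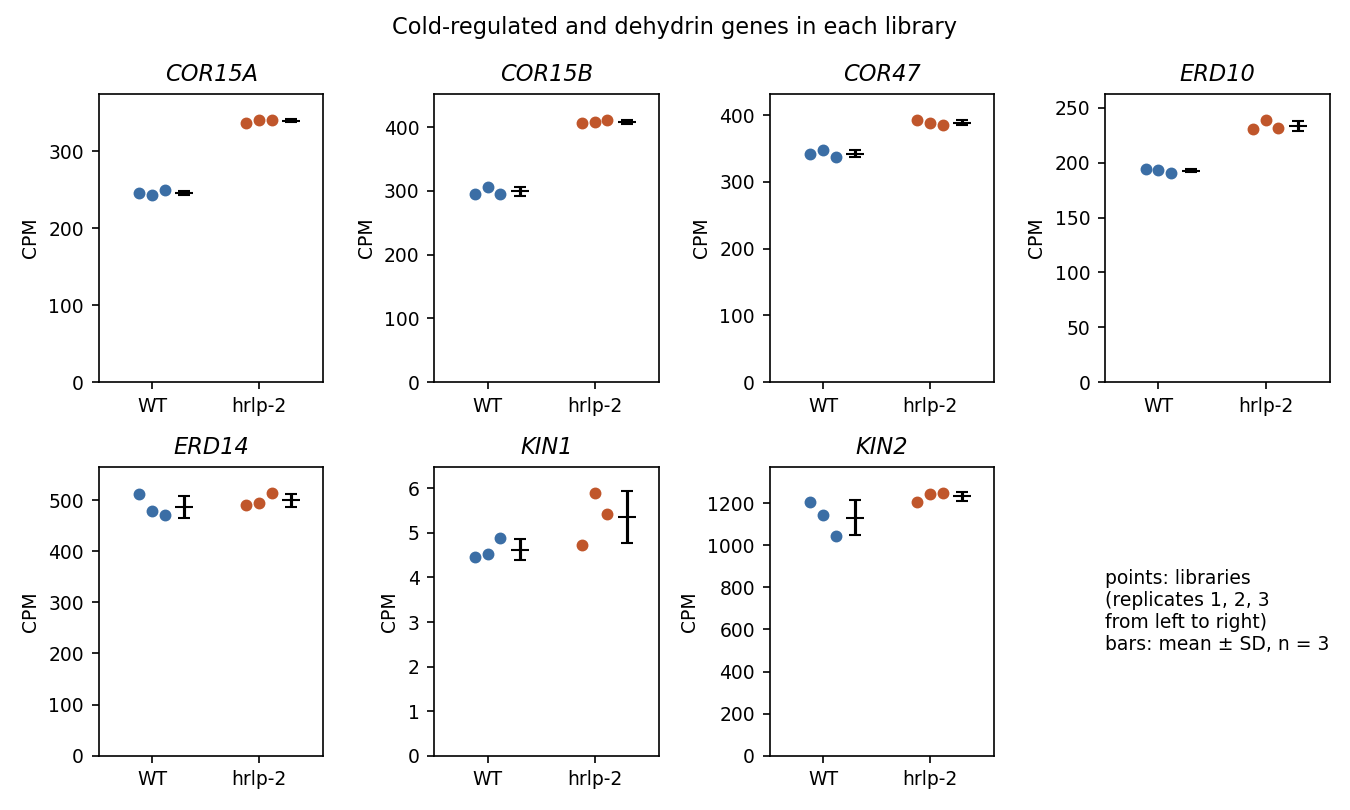
Expression of the 7 genes in deposited CPM, before the scaling of the test (vertical axes, starting at 0), in each library. Points are the 3 libraries of WT and of hrlp-2, and bars are the mean ± SD. The groups stand apart for COR15A, COR15B, COR47 and ERD10, and overlap for ERD14, KIN1 and KIN2.

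The genotype was checked on HRLP (AT2G44710) itself. The WT libraries held 30.03, 33.04 and 30.37 CPM and the hrlp-2 libraries 16.76, 17.03 and 15.88 CPM, so the transcript fell to 53.2% of the WT mean and stayed present in every mutant library (log2 fold change -0.87, SE 0.0647, limma adjusted p = 3.99e-12). These totals do not tell which part of the transcript is left. As for tissue, the 7 root markers with a row were split. CASP2 and CASP4, which define the root endodermis, were listed at 0 in every library, the root hair gene COBL9 reached at most 0.09 CPM, CASP1 at most 0.75 CPM and NRT2.1 at most 2.00 CPM. PYK10 and TIP2-2 were well expressed, at WT means of 231.6 and 107.6 CPM, and both were higher in hrlp-2, as described further on. The libraries are bulk RNA, in which a change in the number of cells that express a gene and a change in RNA per cell cannot be told apart.

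COR15A (AT2G42540) and COR15B (AT2G42530) lie head to tail on the minus strand of chromosome 2, at 17710441 to 17712330 and 17708593 to 17710433 in the RefSeq annotation of TAIR10.1, with 2 exons each and 7 bases between the genes. Their coding sequences are identical in 352 of 426 aligned columns (82.6%), and the transcripts share no stretch of 50 bases. Each carries a CRT/DRE core at nearly the same distance before its start codon, and these sites are shown because the COR15 genes changed most. The sites are chr2:17712218-17712242 for COR15A and chr2:17710124-17710148 for COR15B (TAIR10.1, minus strand), 266 and 265 bases before the start codon, with the core in capitals and 10 bases on each side.
COR15A: aatttcatggCCGACctgctttttt
COR15B: aacttgatggCCGACctcttttttc
COR15A has another such core 443 bases before its start codon, at chr2:17712395-17712419.
COR15A, upstream: aacttgttggCCGACatacatttgt

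COR15A measured 245.3, 243.43 and 249.09 CPM in the WT libraries and 337.0, 340.72 and 340.64 CPM in the hrlp-2 libraries. Every mutant library lay far above every WT library, and libraries of the same genotype differed by only a few CPM. The means of the deposited CPM were 245.9 ± 2.88 CPM (SD, n = 3) and 339.5 ± 2.13 CPM (n = 3). After the scaling of the test, the rise was 1.40-fold (95% interval 1.35 to 1.45, log2 fold change 0.48, SE 0.0252, adjusted p = 6.75e-16). Among the 1604 rows that averaged at least 100 CPM, 4 others had as large a log2 fold change. COR15B held 295.47, 306.65 and 295.33 CPM in WT and 406.0, 408.05 and 411.71 CPM in hrlp-2. Here too the groups were clear of each other. The rise was 1.38-fold (1.34 to 1.43, log2 fold change 0.47, SE 0.0240, adjusted p = 4.73e-16). COR15B overlaps a gene on the opposite strand, AT2G42520, by 468 bases. The strand setting of the authors' counting is not given in the sources used here, so reads of the partner may be included. No row was matched to AT2G42520.

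The ratio within the COR15 pair was compared next. The ratio of COR15B to COR15A was 1.205, 1.260 and 1.186 in WT and 1.205, 1.198 and 1.209 in hrlp-2. The mean log2 ratio changed by -0.015 (two-sided exact permutation test, p = 0.9), but the smallest p that 3 against 3 libraries allow is 0.1, so this test could not have passed the threshold of 0.05. Without WT replicate 2 the change was 0.0104, of opposite sign. Summed over the pair, the mean level was 545.1 CPM in WT, against 748.0 CPM in the mutant.

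COR47 (AT1G20440) and ERD10 (AT1G20450) are also neighbours, on the minus strand of chromosome 1 at 7084409 to 7086873 and 7087903 to 7089606, 1029 bases apart. ERD14 (AT1G76180) is on the same chromosome at 28586663 to 28587931. In their coding sequences COR47 and ERD10 are 73.5% identical, while ERD14 is 55% identical to COR47 and 54.1% to ERD10. No stretch of 50 bases is shared within any of these pairs. The sites that hold the CRT/DRE core before COR47 and ERD10 are printed because they start with nearly the same letters, and ERD10 repeats the core. They are chr1:7085918-7085942 for COR47 and chr1:7089371-7089395 for ERD10 (TAIR10.1, minus strand), 268 and 278 bases before the start codon. Capitals mark the core, for ERD10 the first of 3 that overlap.
COR47: tattcatctaCCGACttcaagaaat
ERD10: tattcatccaCCGACcgaccgacgt
The letters of the core do not occur in the 500 bases before the ERD14 start codon.

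ERD10, a dehydrin that also acts as a chaperone in vitro, measured 194.06, 193.45 and 191.02 CPM in WT and 231.22, 239.27 and 231.34 CPM in hrlp-2. The lowest mutant library was above the highest WT library. Its rise was 1.23-fold (1.18 to 1.28, log2 fold change 0.30, SE 0.0276, adjusted p = 6.26e-10). COR47 was at 341.81, 348.14 and 336.94 CPM in WT and at 393.22, 388.08 and 385.71 CPM in hrlp-2, again without overlap. It rose 1.15-fold (1.11 to 1.19, log2 fold change 0.20, SE 0.0236, adjusted p = 5.82e-08). In CPM the differences between the group means were alike for these neighbours, 41.1 CPM for ERD10 and 46.7 CPM for COR47, because COR47 started from a higher level.

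The ratio of ERD10 to COR47 was 0.568, 0.556 and 0.567 in WT and 0.588, 0.617 and 0.5998 in hrlp-2. All 3 mutant libraries had a higher ratio than any WT library. The mean log2 ratio rose by 0.09, with p = 0.1 in the two-sided exact permutation test, which is the smallest value this design can give and does not pass the threshold of 0.05.

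ERD14, the third acidic dehydrin and the strongest of them, did not pass the test. It held 511.28, 477.81 and 470.95 CPM in WT and 491.32, 493.6 and 513.42 CPM in hrlp-2. WT replicate 1 lay above 2 of the 3 mutant libraries. The means of the deposited CPM were 486.7 ± 21.6 and 499.4 ± 12.2 CPM. After the scaling of the test, the fold was 1.04 (1.003 to 1.08, log2 fold change 0.06, SE 0.0261, unadjusted p = 0.0332, limma adjusted p = 0.12). Without WT replicate 1 the log2 fold change was 0.0941 and passed (adjusted p = 0.00438). With all libraries but no rescaling it was 0.038 and did not pass (limma adjusted p = 0.356). The upper bound of 1.08-fold lies below the lower bound for ERD10 (1.18-fold) and for COR47 (1.11-fold). The difference between these dehydrins was not tested itself.

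**Figure D2:**
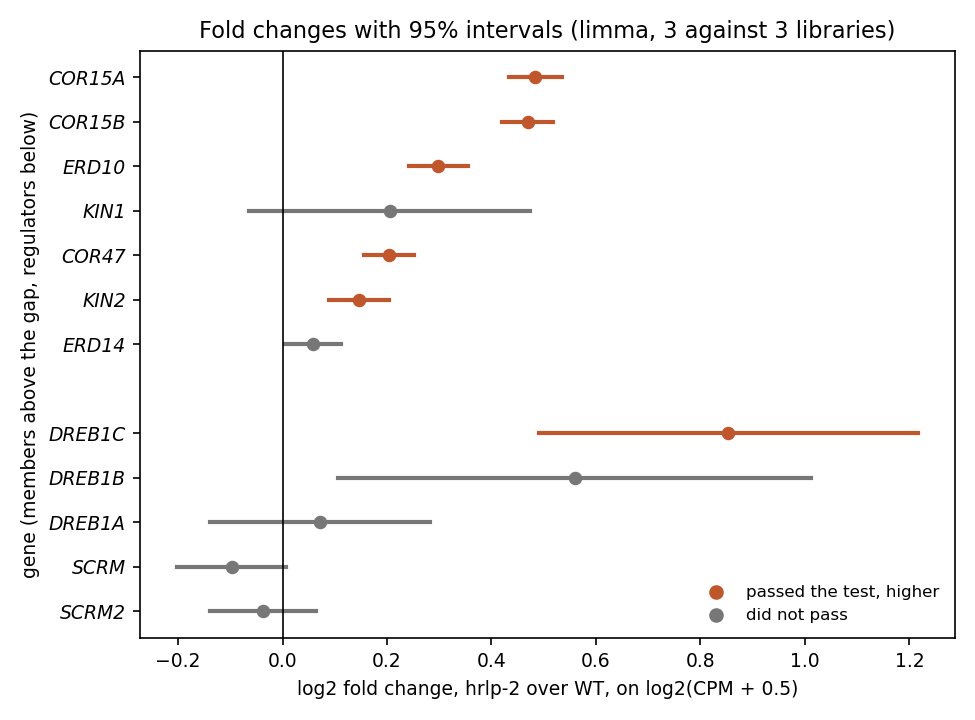
Log2 fold change of hrlp-2 over WT on the log2(CPM + 0.5) scale (horizontal axis) with 95% intervals from limma, for the 7 genes in the upper block and the DREB1 and ICE genes in the lower block. Orange points passed the test as higher and grey points did not pass. COR15A and COR15B lie together at 0.48 and 0.47, ERD14 at 0.06, and DREB1C at 0.85 has a wide interval.

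KIN1 (AT5G15960) and KIN2 (AT5G15970) stand in tandem on the plus strand of chromosome 5, at 5209717 to 5210826 and 5211719 to 5212743, with 892 bases between them. Their coding sequences of 201 bases are shown because they are nearly the same while the genes' levels are far apart, so that read assignment matters for KIN1. They run from chr5:5209992-5210473 and chr5:5211966-5212441 (TAIR10.1, introns removed), and capitals mark the 10 bases that differ.
KIN1: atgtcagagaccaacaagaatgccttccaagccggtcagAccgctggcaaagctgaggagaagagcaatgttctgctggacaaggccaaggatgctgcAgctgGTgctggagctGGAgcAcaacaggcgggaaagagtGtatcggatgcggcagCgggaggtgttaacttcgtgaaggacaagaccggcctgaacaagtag
KIN2: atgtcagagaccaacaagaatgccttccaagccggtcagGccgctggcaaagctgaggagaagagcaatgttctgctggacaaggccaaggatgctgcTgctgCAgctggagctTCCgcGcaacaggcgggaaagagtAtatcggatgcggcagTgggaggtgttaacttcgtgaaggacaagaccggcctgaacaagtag
The coding sequences are identical at 191 of 201 bases (95%). Over the whole transcripts, 1.28% of the 50-base stretches of KIN1 occur in KIN2. How the authors counted reads that fit both genes is not given in the sources used here.

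KIN2 was the most abundant of the 7 transcripts and varied most between WT libraries among those that rose. It measured 1207.46, 1142.33 and 1044.87 CPM in WT and 1206.63, 1243.7 and 1247.89 CPM in hrlp-2. In the deposited CPM the groups overlapped, since WT replicate 1 equalled the lowest mutant library, hrlp-2 replicate 1, to within 1 CPM. The test divided WT replicate 1 by a scaling factor of 1.0065 and hrlp-2 replicate 1 by 0.99405. On that scale hrlp-2 replicate 1 lay above WT replicate 1, so the groups did not overlap. The means of the deposited CPM were 1131.6 ± 81.8 and 1232.7 ± 22.7 CPM. After the scaling of the test, the rise of 1.11-fold passed (1.06 to 1.15, log2 fold change 0.15, SE 0.0282, adjusted p = 0.000229). The log2 fold change was 0.0933 without WT replicate 3, the lowest WT library, and still passed (adjusted p = 0.00678). With all libraries but no rescaling it was 0.1259 and passed too (limma adjusted p = 0.00184).

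KIN1 was far weaker than its neighbour. It measured 4.47, 4.52 and 4.89 CPM in WT and 4.73, 5.89 and 5.43 CPM in hrlp-2, or about 102 to 119 reads per library. One mutant library lay within the WT range, and the fold of 1.15 did not pass (0.957 to 1.39, log2 fold change 0.20, SE 0.132, adjusted p = 0.305). The interval contains both no change and the KIN2 value. The ratio of KIN2 to KIN1 was 246 ± 28.9 in WT and 232 ± 22.1 in hrlp-2 (n = 3 each), and the log2 ratio changed by -0.08 (two-sided exact permutation test, p = 0.6). With 1 library left out it ran from -0.1757 (without WT replicate 3) to -0.0066 (without WT replicate 1). Some reads given to KIN1 could come from KIN2, which was not tested.

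Per kilobase of the RefSeq transcript, the 7 genes had the same order in both genotypes. In WT the levels were 1509 CPM per kb for KIN2, 485 for ERD14, 189 for COR15B, 159 for COR15A, 148 for COR47, 119 for ERD10 and 5.58 for KIN1. In hrlp-2 they were 1644 for KIN2, 498 for ERD14, 258 for COR15B, 220 for COR15A, 168 for COR47, 145 for ERD10 and 6.45 for KIN1, all in CPM per kb. No neighbours in this order overlapped between their 3 libraries in either genotype, although the lengths depend on the transcript model. The genes that stood highest, KIN2 and ERD14, were those with the smallest fold changes. The spread between replicates was small for the COR15 genes (coefficient of variation 1.17% and 2.17% in WT) and larger for ERD14 (4.43%) and KIN2 (7.23%), each of which was highest in WT replicate 1.

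The 7 genes together made up 0.259% to 0.280% of a WT library and 0.307% to 0.314% of an hrlp-2 library. Their sum was 2703 ± 104 CPM in WT, against 3109 ± 34.3 CPM in the mutant (n = 3 each). The lowest mutant library, at 3070 CPM, was above the highest WT library, at 2800 CPM. KIN2 and COR15B gained most in absolute terms, 101 and 109 CPM between the group means, and COR15A gained 93.5 CPM.

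The CRT/DRE and ABRE cores before the start codons were then counted. Both strands of the 500 bases before each start codon were searched for the CRT/DRE core CCGAC, which reads GTCGG when it lies on the opposite strand. The same search was made for the ABRE core ACGTG, which on the opposite strand reads CACGT. A CRT/DRE core stood before 6 of the 7 genes, against 23.3% of 27443 genes searched in the same way, and 2 or more matches stood before COR15A and ERD10, against 4.42%. This is a description and not a test, since the element is known before such genes. The 6 genes are also neighbouring pairs of like sequence, so their matches are not independent. The 3 matches before ERD10 overlap and make 1 place when merged, while the 2 before COR15A are separate. COR15B, COR47, KIN1 and KIN2 had 1 each. The sites before KIN1 and KIN2 share all but 1 of their 25 bases, at chr5:5209804-5209828 and chr5:5211771-5211795 on the plus strand, 178 and 185 bases before the start codon.
KIN1, CRT/DRE site: taaatagctaCCGACataaggcaaa
KIN2, CRT/DRE site: taaaaagctaCCGACataaggcaaa

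An ABRE core stood before 6 of the 7 genes, against 34.8% of all genes, with the same limits. Matches numbered 7 for KIN2, 5 each for COR15A and KIN1, 3 for COR15B, 2 for ERD14, 1 for COR47 and 0 for ERD10. Many of these overlap, because the palindrome CACGTG holds the core on both strands. Merged, they make 4 places for KIN2, 3 each for COR15A and KIN1, 2 each for COR15B and ERD14 and 1 for COR47. The RefSeq gene models begin upstream of most sites, so apart from the COR15A site at 443 bases the printed sites lie between the annotated gene start and the start codon. A match is a run of letters and was not tested as a binding site.

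**Figure D3:**
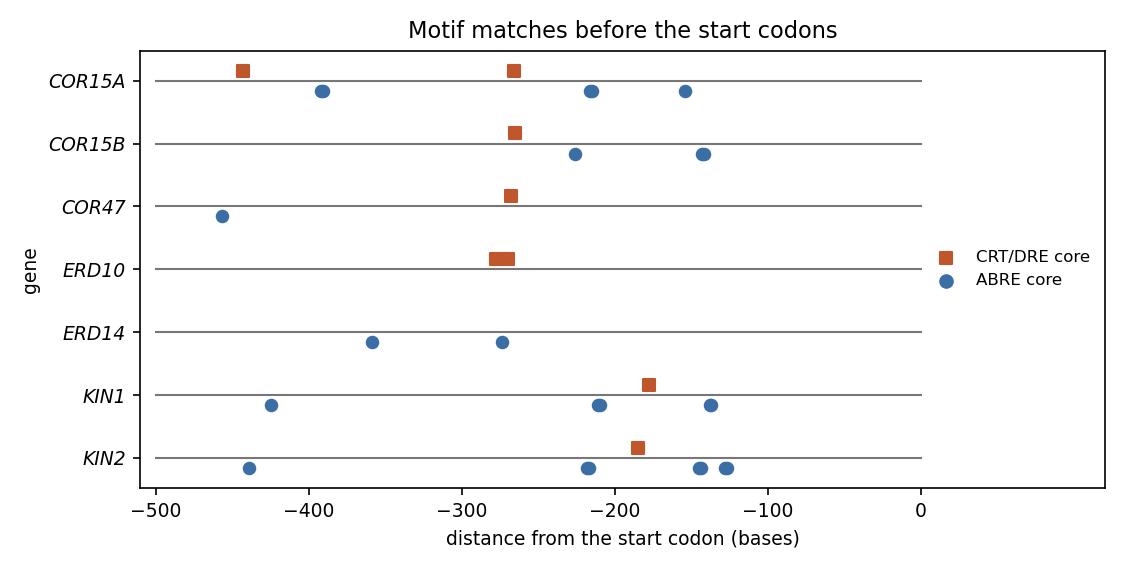
Matches to the CRT/DRE core (orange squares) and the ABRE core (blue circles) in the 500 bases before the start codon of each gene. The horizontal axis is the distance from the start codon in bases. ERD14 has no CRT/DRE match and ERD10 has no ABRE match, while COR15A, COR15B, COR47 and ERD10 have a CRT/DRE match 265 to 278 bases before the start codon.

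Upstream regulators of cold-regulated genes passed in both directions. Of 28 listed genes of cold signalling, 24 were tested, of which 3 were higher, 4 lower and 17 not passed, where 20.4% of all rows passed in either direction. Their median log2 fold change was -0.03. The CBF genes themselves were weak. DREB1C (CBF2) measured 1.32, 1.77 and 2.04 CPM in WT and 2.90, 3.90 and 3.50 CPM in hrlp-2, without overlap, and rose with a log2 fold change of 0.85 (SE 0.178, adjusted p = 0.00057) on 31 to 78 reads per library. DREB1B (CBF1) measured 0.68, 0.71 and 1.27 CPM in WT and 1.27, 1.40 and 1.84 CPM in hrlp-2, where the highest WT and the lowest mutant library were equal. It did not pass (log2 fold change 0.56, adjusted p = 0.0738), but did without WT replicate 3 (0.7505, adjusted p = 0.0305). DREB1A (CBF3), the strongest of them, measured 8.21, 8.78 and 8.55 CPM in WT and 9.45, 9.19 and 7.96 CPM in hrlp-2 (log2 fold change 0.07, adjusted p = 0.693).

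SCRM (ICE1) and SCRM2 (ICE2), the bHLH factors that activate CBF genes, did not pass. SCRM averaged 45.2 CPM in WT against 41.6 CPM in the mutant (adjusted p = 0.196), and SCRM2 averaged 42.6 and 40.9 CPM (adjusted p = 0.67). Of the other regulators, ZAT12, a stress-induced zinc-finger gene, went from 0.697 ± 0.220 to 1.45 ± 0.400 CPM (adjusted p = 0.0253), a call on 11 to 45 reads that was lost without WT replicate 1 (adjusted p = 0.115), WT replicate 2 (0.0582), hrlp-2 replicate 1 (0.128) or hrlp-2 replicate 2 (0.083). EIN3, the ethylene response factor known to repress CBF genes, rose from 90.6 ± 3.52 to 100.7 ± 6.19 CPM (adjusted p = 0.0026, or 0.0528 without hrlp-2 replicate 2).

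The 4 regulators that fell were APRR7, SOC1, CAMTA1 and PIF4. APRR7, a clock repressor of CBF genes, measured 143.62, 144.44 and 147.52 CPM in WT and 119.04, 105.0 and 104.1 CPM in hrlp-2 (log2 fold change -0.39, adjusted p = 2.76e-09). All mutant libraries lay below all WT libraries. SOC1, a flowering gene also known to repress CBF genes, fell from 25.2 ± 0.606 to 20.1 ± 0.459 CPM (adjusted p = 0.000659). CAMTA1, a calmodulin-binding factor listed in the files as EICBP.B, fell from 48.3 ± 2.41 to 40.7 ± 2.63 CPM (adjusted p = 0.00198). PIF4, a light-signalling factor, went from 85.6 to 78.3 CPM (adjusted p = 0.0406), and that call ended without any 1 of 5 libraries, with adjusted p up to 0.153, without the filter on low values (0.0553) and with limma-voom (0.0534).

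Other cold-regulated genes that passed were all higher, as the COR15 genes were. Of 18 listed, 16 had a row and were tested, 6 were higher, 0 lower and 10 did not pass, with a median log2 fold change of 0.12 (0 lower also at an unadjusted p under 0.05 and with limma-voom). For scale, 11% of all tested rows were higher, and 35.2% of rows of at least 100 CPM. COR413IM1, of the chloroplast inner envelope, rose most, from 72.8 ± 1.93 to 96.7 ± 2.86 CPM (log2 fold change 0.43, adjusted p = 3.05e-10). RD29A, the reporter gene of cold and drought signalling, measured 235.02, 245.11 and 245.01 CPM in WT and 307.02, 297.66 and 303.03 CPM in hrlp-2. Its groups were well apart (log2 fold change 0.34, SE 0.0263, adjusted p = 8.38e-12). COR413PM1, of the plasma membrane, rose from 344.0 ± 5.33 to 415.5 ± 5.35 CPM (log2 fold change 0.29, adjusted p = 3.55e-11).

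The other 3 had smaller changes. COR27, a regulator of freezing tolerance and the clock, rose from 93.3 to 101.1 CPM (adjusted p = 0.00562), and SUS1, a sucrose synthase, from 28.5 to 32.1 CPM (adjusted p = 0.0151, or 0.0526 without WT replicate 3 and 0.0623 without hrlp-2 replicate 1). ERD7 rose from 90.3 to 97.4 CPM (adjusted p = 0.0117, or 0.0704 without WT replicate 2 and 0.0925 without hrlp-2 replicate 2).

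Dehydrins beyond COR47, ERD10 and ERD14 showed 0 calls in limma. Of 7 listed, 5 had a row and 3 passed the filter on low values, and the count was also 0 at an unadjusted p under 0.05 and with limma-voom. Over all tested rows, 20.4% passed in either direction. HIRD11, a small dehydrin that binds metal ions, was the strongest gene of all those described here at 2037.46, 2135.6 and 2126.54 CPM in WT and 2003.83, 2022.5 and 2041.55 CPM in hrlp-2. Only WT replicate 1 fell within the mutant range (log2 fold change -0.03, adjusted p = 0.218). It passed as lower without that library (-0.0552, adjusted p = 0.0153) and with the deposited CPM not rescaled (-0.0538, adjusted p = 0.0424). RAB18, the abscisic acid-induced dehydrin, averaged 12.3 and 12.4 CPM (adjusted p = 0.825), and XERO2, a cold-induced dehydrin, 4.10 and 4.58 CPM (adjusted p = 0.484). Within the dehydrins, COR47 and ERD10 rose while ERD14, HIRD11, RAB18 and XERO2 did not pass.

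Abscisic acid response genes gave 6 higher, 0 lower and 13 not passed of 19 tested, from 23 listed, with a median log2 fold change of 0.19 (at an unadjusted p under 0.05, 1 was lower, ABF2, and with limma-voom 0). The share called higher was 11% over all tested rows and 35.2% over rows of at least 100 CPM. PP2CA, a phosphatase that dampens abscisic acid signalling, rose most, from 53.1 ± 2.68 to 78.8 ± 2.30 CPM (log2 fold change 0.58, adjusted p = 2.55e-12). NCED3, the rate-limiting enzyme of abscisic acid synthesis under drought, rose from 3.08 to 4.76 CPM (log2 fold change 0.57, adjusted p = 0.00444). RD26, a NAC transcription factor, rose from 9.25 to 13.6 CPM (adjusted p = 3.91e-05), and the caleosin RD20, listed as PXG3, from 10.98 to 15.84 CPM (adjusted p = 2.13e-05). RD22 rose from 353.5 to 396.8 CPM (adjusted p = 3.10e-07). ABI1, a relative of PP2CA, rose from 55.8 to 62.2 CPM (adjusted p = 0.00393, or 0.0519 without WT replicate 3).

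ERD10 and ERD14 owe their names to early response to dehydration. Of 11 other genes named in that screen, 10 had a row and were tested, and 6 were higher, 0 lower and 4 not passed, with a median log2 fold change of 0.17 (0 lower also at an unadjusted p under 0.05 and with limma-voom). Among all tested rows 11% were higher, and among rows of at least 100 CPM 35.2%. ERD1, a chloroplast Clp chaperone listed as CLPD, rose from 80.5 to 93.6 CPM (log2 fold change 0.24, adjusted p = 3.55e-05). ERD4, a membrane protein, rose from 304.9 to 353.0 CPM (0.23, adjusted p = 9.76e-09), ERD3 from 186.1 to 214.2 CPM (0.22, adjusted p = 2.82e-06), and ERD15 from 412.1 to 468.2 CPM (0.21, adjusted p = 2.38e-07). ERD6, a sugar transporter, rose from 45.0 to 51.2 CPM (0.20, adjusted p = 0.00143), and ERD7 is given above.

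**Figure D4:**
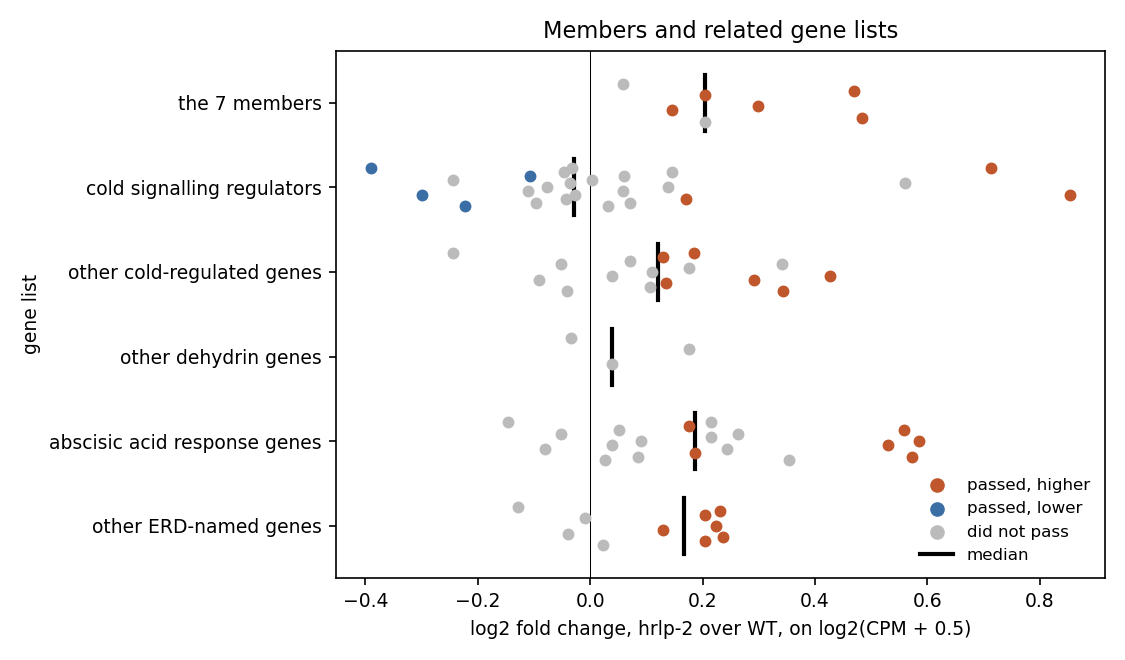
Log2 fold change of hrlp-2 over WT on the log2(CPM + 0.5) scale (horizontal axis) for each tested gene of the 7 described here and of 5 related lists. Orange points passed as higher, blue as lower, grey did not pass, and black bars are medians. The medians are 0.20 for the 7 genes, -0.03 for cold signalling regulators, 0.12 for other cold-regulated genes, 0.04 for other dehydrins, 0.19 for abscisic acid response genes and 0.17 for other ERD genes.

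Of 8 listed root markers, 7 had a row and 3 were tested, of which 2 were higher in hrlp-2: PYK10, a beta-glucosidase of root ER bodies listed as BGLU23, rose from 231.6 ± 0.774 to 266.9 ± 7.80 CPM (adjusted p = 1.22e-07), and TIP2-2, a vacuolar water channel, rose from 107.6 ± 2.75 to 134.8 ± 0.376 CPM (adjusted p = 8.97e-10). Of all tested rows 11% were higher, and of rows of at least 100 CPM, such as PYK10 and TIP2-2, 35.2%. The endodermal and root hair markers stayed at or near 0, with CASP1 at 0.25 to 0.75 CPM. NRT2.1, a root nitrate transporter, averaged 1.73 CPM in WT against 1.38 CPM in the mutant and did not pass (adjusted p = 0.396). The sum over the 7 markers, nearly all of it PYK10 and TIP2-2, ran from 338.8 to 345.5 CPM in WT and from 396.7 to 412.1 CPM in hrlp-2, without overlap. The part of these markers in the changes of the 7 genes was not tested. Of 9 seed and embryo markers, 2 had a row, with sums of 0.04 to 0.49 CPM per library.

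On each side of the 7 genes or their pairs, the nearest locus with a tested row was read from the same fit. Closer loci without a tested row were passed over, AT2G42520 among them. Of the 8 nearest tested loci, 0 were higher and 1 was lower (0 higher also at an unadjusted p under 0.05 and with limma-voom). Over all tested rows, 11% were higher and 9.31% lower, so counts this low among 8 loci are near that share. None of the 8 averaged above 35.1 CPM in WT, and weak rows passed less often than strong ones. AT1G76170, 244 bases from ERD14, fell from 8.29 ± 0.858 to 5.91 ± 0.456 CPM (log2 fold change -0.43, adjusted p = 0.00655, or 0.0517 without WT replicate 2). AT2G42510 and TBL39, 3902 and 5001 bases from the COR15 pair, did not pass, with 4.54 against 3.83 CPM (adjusted p = 0.346) and 11.1 against 11.1 CPM (adjusted p = 0.895). AT1G20430, 498 bases from COR47, averaged 35.1 CPM in WT against 31.7 CPM in the mutant (adjusted p = 0.122, or 0.0398 and lower without WT replicate 2). AT1G20460, 1334 bases from ERD10 (adjusted p = 0.295), and AT1G76185, 2393 bases from ERD14 (0.18), did not pass. Nor did PAM1 (0.739) and AT5G15980 (0.781), 7264 and 318 bases from the KIN pair.

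The genes closest to the common profile of the 7 were MDH1, LAP1, RFS2, XTH6 and MLP43, measured as the root mean square distance of the centred log2 values over the 6 libraries. MDH1 was at a distance of 0.0140 and measured 428.87, 415.01 and 407.69 CPM in WT and 478.59, 497.77 and 496.67 CPM in hrlp-2. The distances of the other four were 0.0145 for LAP1, a leucine aminopeptidase, 0.0156 for RFS2, 0.0157 for XTH6, a cell wall xyloglucan enzyme, and 0.0183 for MLP43. Of the 7 genes themselves, ERD10 was nearest to their mean profile at 0.0208 and COR47 next at 0.0412. COR15A (0.111) and ERD14 (0.110) were the farthest, the former with a steeper and the latter with a flatter difference between genotypes.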

How the data were processed

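RNA was measured in 6 libraries, 3 of WT and 3 of hrlp-2, grouped and numbered by their titles. The authors deposited 1 table of CPM values per library. The submitters' processing notes name STAR 2.7.3a and TAIR10, while the counter, annotation and strand setting used were not given in the sources used here. Whole reads could not be recovered, since 88.0% to 89.5% of values under 2 CPM lay on read steps (tolerance 0.0051 CPM; 20.3% to 25.7% by chance). Read numbers are therefore estimates, and no count model was used for the main test. Limma-voom on the estimated reads was run as an alternative. The read numbers cover counting error only. P-values reflect the spread between these libraries.

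Rows that reached 0.5 CPM in 3 or more libraries were scaled by unweighted trimmed means of M values (TMM factors 0.990 to 1.013) and tested as log2(CPM + 0.5) with limma 3.58.1 in R 4.3.3 (intensity trend, two-sided, Benjamini-Hochberg over 18643 rows, threshold 0.05). Fold changes are on this log2 scale, which understates changes of weak genes. The CPM values, means, sums and overlaps of genes are those deposited, before this scaling. The printed means therefore do not give the stated fold changes exactly. Over all tested rows the median log2 fold change was -0.017 without rescaling and 0.002 with it. Fold intervals are 95%. The functions were tested on simulated data. Rows were matched to RefSeq genes of TAIR10.1 (18982 of 22759), and an unnamed last row at 0 CPM was left out. Sequences come from RefSeq TAIR10.1, with coding alignments made in Biopython 1.88.

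The 7 genes and the lists were chosen with earlier results of these data known. Named were the 7 genes, HRLP, up to 6 called genes per list by size of change, the DREB1 and ICE genes, the nearest tested loci, and the 5 rows with the most alike profile. PIF4, HIRD11, RAB18, XERO2, ABF2 and the root markers were named after their values were seen. ERD7, XERO2 and RAB18 are each in 2 lists. In libraries of a group, the median chi-square per row was 0.793 to 0.917 against 0.455 from counting noise, so none were merged. WT replicate 3 stood apart from the other WT libraries in its mean chi-square (11.2 and 13.4, against 2.25 to 2.51 for other pairs).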

Additional observations from a re-analysis of the deposited data

How the results depend on the processing

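The alternatives were pseudocounts of 0.1 and 1, no filter, a filter of 1 CPM, no rescaling, upper-quartile and relative log expression scaling, limma-voom on estimated reads, the replicate block and leaving out each library. The number of the 7 genes called higher was 5 under all of these except without WT replicate 1, where it was 6, and 0 were lower throughout. Of 984 alternative values, 962 kept their direction and side of the threshold, or stayed within 1.5 times the count. With no rescaling, and without WT replicate 1, 1 other dehydrin (HIRD11) was lower instead of 0. Without single libraries, cold signalling regulators called higher ranged from 2 to 5, other dehydrins called lower from 0 to 1, and the log2 change in the ratio of COR15B to COR15A from -0.0334 to 0.0104, and that of KIN2 to KIN1 from -0.1757 to -0.0066. Directions reversed for TBL39 (-0.01 without WT replicate 3, -0.0281 without hrlp-2 replicate 1, highest 0.0635), PAM1 (-0.0056, highest 0.1061) and AT5G15980 (-0.0136, highest 0.0783, both reversed without hrlp-2 replicate 3), none of which passed. The cause was not tested. Over all rows, 2059 were higher and 1735 lower, against 1639 and 2035 with no rescaling.

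Same-numbered WT and hrlp-2 libraries did not deviate together over all tested rows (correlations -0.00794, -0.0163 and -0.0264), so no pairing by number was seen there. A pairing that acts on few genes was not tested. With the replicate block, 5 of the 7 genes were again higher and 2057 rows in all. KIN1 rests on about 102 to 119 reads per library and DREB1C on 31 to 78, and counting error was not separated from the spread between libraries.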
